A study of Mus musculus with 18 samples.

Results

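RAD21 sites that recurred through B cell activation are described here by their calls, sequence, genes and spacing. RAD21 is the kleisin subunit of cohesin, and it was mapped by chromatin immunoprecipitation and sequencing (ChIP-seq) in splenic B cells. Peaks of the 3 pooled lists (0 h, 48 h and 96 h) that shared 1 bp were merged into 15705 sites. A core site had a peak in each pooled list and was overlapped by peaks of at least 6 of the 9 replicates. There were 864 core sites, which was 5.501% of all sites and 36.3% of the 2382 sites present in all 3 pooled lists. The calls in these lists therefore chose the members, and every count of calls and every score below describes them.

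All cells came from wild-type C57BL/6 mice (C57BL/6J in the study's methods) of 8 to 10 weeks, and each replicate pooled the B cells of 12 mice. The 0 h group was resting B cells. The 48 h and 96 h groups were cultured with 50 µg/ml lipopolysaccharide (LPS) and 2 ng/ml interleukin 4 (IL-4), which induce switching to IgG1. At 96 h the cells positive for IgG1 were enriched by negative selection, so time and purification cannot be told apart at 96 h. There were 3 replicates per time point.

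Cohesin is a ring of SMC1, SMC3, RAD21 and a STAG subunit that holds sister chromatids together and folds chromatin into loops. In interphase most of its mammalian sites lie where CTCF, a zinc finger protein, is bound, and loops are often anchored at a pair of CTCF motifs that point towards each other. Cohesin also occurs at promoters and enhancers, where its loader NIPBL is found.

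Replicate lists held 821 to 8579 peaks. The 48 h replicate 2 stood apart: its narrowest peak was 58 bp against 126 to 164 bp in the other replicates. Its 5254 peaks lay within the range of the other lists. Of the core sites, 16.4% were called in it, against 54.4 to 99.4% in the other replicates. Results that rest on it are given with and without it. Without counting it, 831 sites had peaks in at least 6 of the 8 other replicates. Leaving out 96 h replicate 3, 96 h replicate 2 or 0 h replicate 3 in the same way left 502, 526 and 524 sites.

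The recurring sequence of the core sites resembled the known CTCF motif. A motif of 20 bases was learned without prior input from the 479 core sites on odd-numbered chromosomes, and its consensus, with N where no base reached 50%, was NCCACNAGGGGGCGCNNNNN. Motif matches of the 6 core sites with the highest mean score percentile among those with a match, a choice made after the values were seen, follow, on genome build mm9, with the match in capitals and 5 flanking bases on each side.
2610002J02Rik site (chr4:154623526-154623555, minus strand): agcccATCACTTGGTGGCAGCAAAAgtcca
Tuba3a site (chr6:125221797-125221826, minus strand): attccGCCACAAGAGGGCACCCGAAgccca
Rassf8 site (chr6:145778794-145778823, plus strand): aactaTACACTAGGGGGCAGCAGCCaccgc
Alg14 site (chr3:121010679-121010708, plus strand): atcctGCCACCAGGTGGCAGCATACtacag
Mmp20 site (chr9:7603492-7603521, plus strand): acctcGCCACTAGATGACACTCACTcccca
Klf3 site (chr5:65204895-65204924, minus strand): agagaACCAGTAGGTGGCGCACGAAaacag
Each site is named by the nearest protein-coding transcription start. The site next to 2610002J02Rik lay 582 bp from it, that of Klf3, a Krüppel-like repressor, lay 1319 bp away, and the others were 10391 to 24701 bp away.

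A match was a log2 odds of at least 9.29 within 100 bp of the site centre, the level that 5% of the flanking windows of the training sites passed. On the chromosomes not used for learning, 342 of 385 core sites had a match, which was 88.8% (exact binomial 95% interval 85.3 to 91.8%). Flanks 1000 bp away held one at 5.84%. Other sites of all 3 pooled lists carried a match at 86.7% and sites of 1 or 2 lists at 74.5%, so core sites and the other shared sites lay close together. Intervals here cover counting error over sites only, and sites are not replicates. Of all core sites, 712 had a single match, 68 had 2, 3 had more and 81 had none. Over all 864 core sites, with or without a match, Spearman's rho between best log2 odds and mean score percentile in the 9 replicates was 0.03. It was not computed among sites with a match only, or without 48 h replicate 2. For the 783 sites with a match, the median distance from site centre to match was 21 bp.

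The 6 strongest core sites over all 9 replicates did not carry this motif, while without 48 h replicate 2 a match was present in 5 of the 6 strongest. The mean percentile is the rank of a peak's score within its list as a percent, averaged over 9 replicates with 0 where no peak was called. The 6 core sites with the highest mean percentile (92.3 to 97.5) all lacked a match, all were called in 9 of 9 replicates, and all lay over 100 kb from a protein-coding start. A match was absent from 7 of the 10 strongest core sites and from 11 of the 100 strongest. Without 48 h replicate 2 it was absent from 1 of 10 and again from 11 of 100, so most of the 100 strongest in either order carried the motif. Bases from 4 of these 6 sites are shown, the CT-rich ones with the longest run of only C and T in capitals and the other ones from the start of an annotated 5S ribosomal RNA copy, with the longest stretch shared by both copies (16 bases) in capitals.
Gm1818 site (chr12:49931879-49931908, plus strand): CTCTCTCTCTCTCTCTCTCTCTCTCTCTCT
Cacna2d1 site (chr5:15337479-15337508, plus strand): CTCCCTCTCCCTCCCCTCTCTCTTTCCCCC
n-R5s88 (chr9:102030218-102030247, plus strand): tctacaGCCATACCACCCTGAAggagcctg
n-R5s194 (chr3:4338998-4339027, plus strand): atctacgGCCATACCACCCTGAAcgcgcct
The run of C and T was 49 bases long in the Gm1818 site, which lay 270915 bp from the start of Gm1818, and 92 bases long in the Cacna2d1 site. n-R5s88 lay in intron 3 of Ephb1, an ephrin receptor gene.

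Core sites were therefore divided by sequence, after these values were seen, into 783 with a motif match, 48 with no match and repeated sequence, and 33 with no match and unique sequence. Sequence was called repeated where under 95% of a site's 32-base words occurred at a single place in the genome. The median share of such unique words was 52.2% in the repeated class and 100% in the other classes. Sites with a match were not divided by repeats, and their share of unique words ran from 0 to 100%. The repeated class therefore holds only repeated sites without a match. A run of 20 or more bases of only C and T or only A and G was present in 32 of the 48 repeated sites (66.7%), in 48 of the 783 motif sites (6.13%) and in 5 of the 33 unique ones (15.2%). Annotated 5S ribosomal RNA copies lay in 3 core sites, all in the repeated class. The third copy was n-R5s185, in a site at chr4:53873496-53873727 within exon 6 (3′ UTR) of Tmem38b, a gene for an intracellular potassium channel. Repeated sequence without a match made up 5.56% of core sites, 8.83% of the other shared sites and 18.1% of sites of 1 or 2 lists.

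The repeated class ranked highest in 48 h replicate 2. All 48 repeated core sites had a peak there, against 92 of the 783 motif sites (11.7%, 95% interval 9.58 to 14.2%) and 2 of the 33 unique sites. Within that list the repeated sites held a median score percentile of 99.4, and 47 of the 48 were in its top 10%. The 92 motif sites had a median of 18.3. A call in this list counted towards the rule, and 17 of the 48 repeated sites reached 6 replicates only with it. Among core sites with peaks in at least 6 of the 8 other replicates, it called 31 of 31 repeated sites, 30 of them in its top 10%, and 76 of 767 motif sites (9.91%, 7.89 to 12.2%). The pooled 48 h list, which the rule also used, contains this replicate. In the 8 other replicates the repeated class was called at 43.8 to 95.8%. Its median percentile was 92.7 in 48 h replicate 3 and 71.4 in 48 h replicate 1, 67.8 to 76.6 at 0 h and 63.1 to 85.7 at 96 h. In the pooled lists it reached 99.5 at 48 h, 83.9 at 0 h and 88.5 at 96 h, whereas motif sites stood at 59.9 at 48 h, 90 at 0 h and 94.6 at 96 h. Read depth, mappability and input signal over these repeats were not measured here, and their part in the calls was not tested. Without 48 h replicate 2, the 6 strongest core sites included 1 repeated site (Gm1818) and 5 with a motif.

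**Figure D1:**
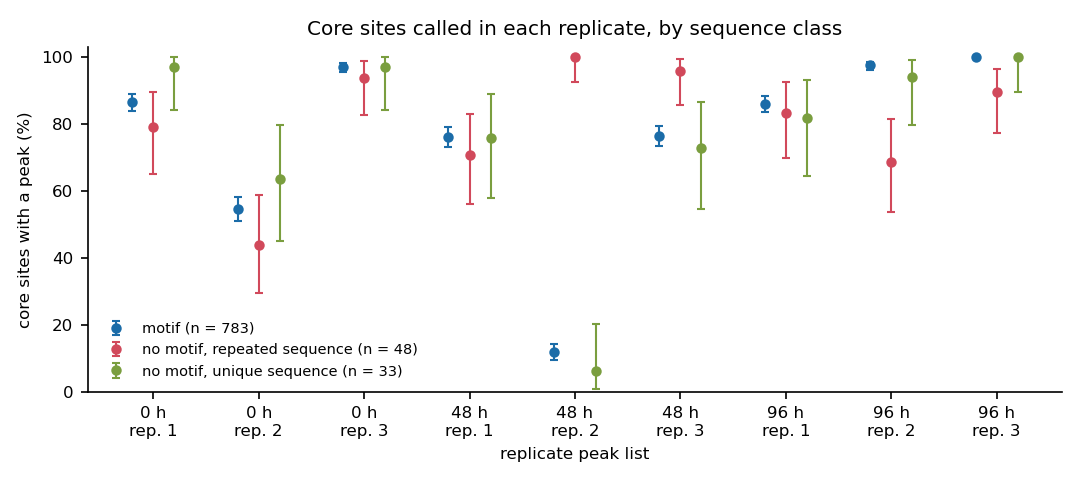
Percent of core sites with a peak in each of the 9 replicate lists (y axis) for the 3 sequence classes; points are shares and bars are exact binomial 95% intervals. In 48 h replicate 2 all 48 repeated sites without a motif were called, against 11.7% of the 783 motif sites.

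**Figure D2:**
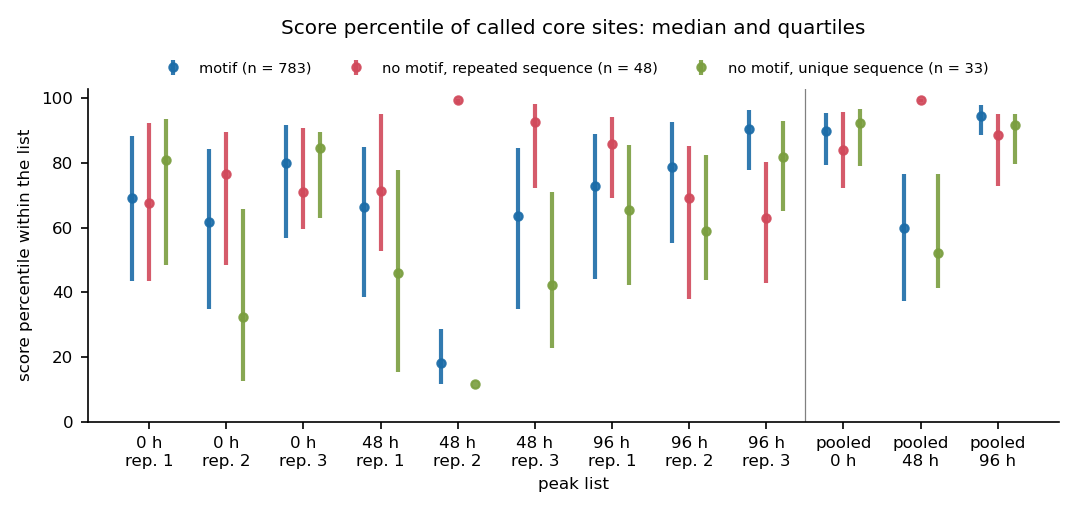
Score percentile within each replicate and pooled list (y axis) for called core sites of the 3 sequence classes; points are medians and bars run from the first to the third quartile. The repeated class lies at 99.4 in 48 h replicate 2 and 99.5 in the pooled 48 h list, above the other classes there.

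The strongest motif site was the one beside 2610002J02Rik (chr4:154623325-154623706, 9 of 9 replicates). Its percentiles were 99.95, 100 and 99.9 at 0 h, 99.6, 28.6 and 99.4 at 48 h, and 99.6, 100 and 99.99 at 96 h. Only 48 h replicate 2 was low. The site near Alg14, which encodes a subunit of a transferase in N-glycan assembly, showed the same. It had 98.7, 99.8 and 100 at 0 h and 99.6, 99.9 and 99.8 at 96 h. At 48 h it had 99.7 and 99.9 in replicates 1 and 3 and no peak in replicate 2. By comparison the repeated Gm1818 site had 94.2, 99.1 and 99.6 at 0 h, 99.3, 100 and 99.9 at 48 h, and 98.0, 95.3 and 92.2 at 96 h. Its lowest value was at 96 h.

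The 33 core sites with neither motif nor repeats lay near promoters in a larger share than the motif sites. Of these, 15 (45.5%, 95% interval 28.1 to 63.6%) lay within 3 kb of a protein-coding start and 9 (27.3%) within 1 kb, compared with 118 (15.1%, 12.6 to 17.8%) and 47 (6.00%) of the motif sites. The repeated class had 3 (6.25%) within 3 kb and 20 (41.7%) over 100 kb away. The 9 promoter sites were those of Nr1h3, Bcl2l1, Socs2, Zpbp, Rnf43, Mapk14, Nedd4l, Cbwd1 and Myof. None of them had a peak in 48 h replicate 2. The site 29 bp from the start of Bcl2l1, which encodes the survival factor BCL-XL (chr2:152657361-152657624), had percentiles of 94.7 and 31.2 in 0 h replicates 1 and 3, 1.17 and 17.1 in 48 h replicates 1 and 3, and 39.8, 33.1 and 96.7 at 96 h. Its pooled percentile was 89.0 at 0 h, 0.323 at 48 h and 95.3 at 96 h. The site at Socs2, a feedback inhibitor of cytokine signalling, lay 899 bp from the start (chr10:94880558-94880867) and had 27.7 and 85.1 at 0 h, 15.5 and 89.5 at 48 h, and 87.9, 93.0 and 80.3 at 96 h. The site 150 bp from the start of Mapk14, the p38 alpha kinase, was called in all 3 replicates at 0 h (92.9, 12.6 and 90.9), in replicate 3 at 48 h (22.9) and in replicates 2 and 3 at 96 h (15.2 and 85.2). At Bcl2l1 the called 48 h replicates lay below all others, and at Socs2 and Mapk14 the time points overlapped. The median best log2 odds in this class was 7.04, below the match level of 9.29, against -2.35 in the repeated class.

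The rule fixed presence in the pooled lists and left room for replicates to differ. With 6 of 9 replicates required, at most 1 time point could be without a call. At least 1 replicate of each time point called 830 core sites (96.1%), while 38 (4.40%) were called in all 9. All 3 replicates called 404 core sites at 0 h, 94 at 48 h and 713 at 96 h. No replicate called 31 core sites at 48 h and 3 at 0 h, and every core site was called at least in 1 replicate at 96 h. The share of core sites called was 86.6%, 54.4% and 96.9% in the 0 h replicates, 75.9%, 16.4% and 77.4% at 48 h, and 85.8%, 95.8% and 99.4% at 96 h. Shorter lists tended to hold fewer core sites, except 48 h replicate 2. Core sites made up 57.5% of the shortest list (0 h replicate 2), 10.0% of the longest (96 h replicate 3) and 2.72% of 48 h replicate 2. The edge of the rule was gradual: the 364 sites with exactly 6 replicates had a median mean percentile of 41.2, and the 430 shared sites with exactly 5 had 30.9. A further 72 sites had 6 or more replicates and lacked a pooled peak, 68 of them at 48 h and 4 at 0 h.

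The rank of core sites within a list varied among replicates. The median percentile of called core sites was 70.1, 61.8 and 79.3 at 0 h, 66.3, 28.6 and 66.3 at 48 h, and 73.0, 77.6 and 89.5 at 96 h. The lowest was 48 h replicate 2, while 48 h replicates 1 and 3 lay between the 0 h replicates. In the pooled lists it was 89.6, 62.3 and 94.3 at 0 h, 48 h and 96 h, and the pooled 48 h list contains replicate 2. The percentile is relative to a list and the lists differ in length, so it is not a level of binding. The sites that moved most in rank were single cases. The largest rise from 0 h to 48 h was in intron 4 of Clic5, a chloride channel gene (chr17:44398838-44399111), from a pooled percentile of 5.35 to 86.8, and it stood at 98.5 at 96 h. No 0 h replicate called it, the 48 h replicates had 88.7, 84.5 and 8.64, and those at 96 h had 97.0, 69.3 and 96.9. The largest fall to 48 h was 17608 bp from Tmsb10, which encodes the actin-binding thymosin beta 10 (chr6:72890537-72890839), from 99.3 to 5.66, with 96.3 at 96 h. Its replicates had 95.5, 92.1 and 98.3 at 0 h, 6.18 in 48 h replicate 1 alone, and 77.8, 78.9 and 94.2 at 96 h. The largest fall to 96 h was at the n-R5s185 copy in Tmem38b, from 92.2 to 30.7, and the next was a repeated site near Fgd2, from 88.5 to 36.2.

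The order of core sites by score was more alike within a time point than between time points. Over sites called in both replicates of a pair, Spearman's rho averaged 0.29 within time points and 0.15 between them. The difference of 0.14 had a one-sided exact permutation p of 0.00357 over the 280 divisions of 9 replicates, the smallest that can be given, and 0.0143 after Benjamini-Hochberg adjustment over the 4 tests made on core sites. Members had been chosen on calls in these same replicates. The closest pair was 96 h replicates 2 and 3 (rho 0.45 over 824 sites) and the lowest value was between 48 h replicate 2 and 96 h replicate 3 (rho -0.33 over 137 sites). The difference held in all 9 fits that left out a replicate (0.11 to 0.20, p 0.00357 to 0.00714, exact permutation). It was 0.06 (p = 0.0214, exact permutation) over the 783 motif sites, and 0.12 (p = 0.00357) when 48 h replicate 2 was left out as well. Over the 38 sites called in all 9 replicates it was 0.11 with an exact permutation p of 0.0679.

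Peaks at core sites were not shown to differ in width with time. Median widths were 216, 164 and 228 bp at 0 h, 202.5, 85 and 178 bp at 48 h, and 201, 221 and 268 bp at 96 h, so the groups overlapped (F = 1.80, exact permutation p = 0.182, adjusted 0.182). The median distance between peak centre and motif match was 21, 21 and 21 bp at 0 h, 22, 34.5 and 25 bp at 48 h, and 21, 18 and 19 bp at 96 h. The 48 h replicates lay above all others (F = 3.41, exact permutation p = 0.0143, adjusted 0.0286). Each pair of time points with 48 h had an exact two-sided p of 0.1, the smallest for 3 against 3. The call was lost (exact permutation p = 0.05) when any 0 h replicate, 96 h replicate 2 or 96 h replicate 3 was left out. Over the 187 core sites called in the 8 replicates other than 48 h replicate 2, with that replicate left out, the exact permutation p was 0.15.

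**Figure D3:**
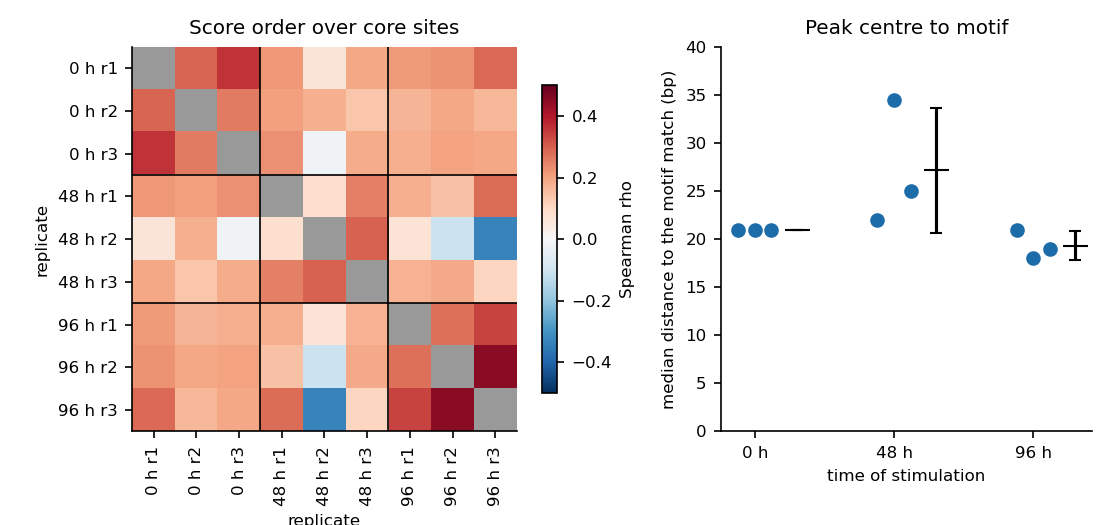
Left, Spearman's rho of peak scores over core sites called in both replicates, for each pair of the 9 replicates (colour scale from -0.5 to 0.5, diagonal grey, lines between time points). Right, the median distance in bp from peak centre to motif match in each replicate (points), with the mean and SD of 3 replicates beside them; the 48 h replicates reach 34.5 bp.

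Core sites lay between genes and in introns at close to the share of sequenced bases there. The site centre was intergenic in 522 cases (60.4%, against 61.0% of bases), in an intron in 268 (31.02%, against 34.5%), in a coding exon in 4, in a 3′ UTR in 11 and in a 5′ UTR in 2, by GENCODE protein-coding genes. Within 1 kb of a protein-coding start lay 57 (6.60%), 2.86 times the share of sequenced bases there, and within 3 kb 136 (15.7%, 95% interval 13.4 to 18.3%), 2.48 times that share. The other shared sites (12.5%, 10.8 to 14.2%) and sites of 1 or 2 lists (13.3%, 12.8 to 13.9%) had intervals that overlapped that of the core. The median distance to a start was 17.5 kb. The strongest promoter sites beside that of 2610002J02Rik were 117 bp from Fam19a2, a secreted chemokine-like protein gene, 197 bp from Slc39a13, a zinc transporter, and 514 bp from Eif2c2, the Argonaute slicer of small RNA silencing. The Eif2c2 site (chr15:73015744-73016038) had percentiles of 96.4, 91.0 and 98.3 at 0 h, 75.6 and 40.3 in 48 h replicates 1 and 3, and 97.0, 98.0 and 99.4 at 96 h. The Slc39a13 site (chr2:90910593-90910949) had 68.5, 92.1 and 61.8 at 0 h, 95.6 and 95.7 in 48 h replicates 1 and 3, and 96.7, 98.3 and 99.2 at 96 h. Eif2c2 was lower in both called 48 h replicates than at the other times, and Slc39a13 was not.

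Core sites near starts did not rank apart by time in the test made. The median rank of sites within 3 kb of a start minus that of the others was 8.05, 0.0 and 6.87 percentile points at 0 h, 0.0, -8.45 and -2.17 at 48 h, and 0.0, 0.0 and 2.42 at 96 h (F = 4.07, exact permutation p = 0.0786, adjusted 0.105). Without 0 h replicate 2 the exact permutation p was 0.0143. Scores took few distinct values, 6.78 to 20.0% of the number of peaks in a list, so several of these differences were exactly 0.

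**Figure D4:**
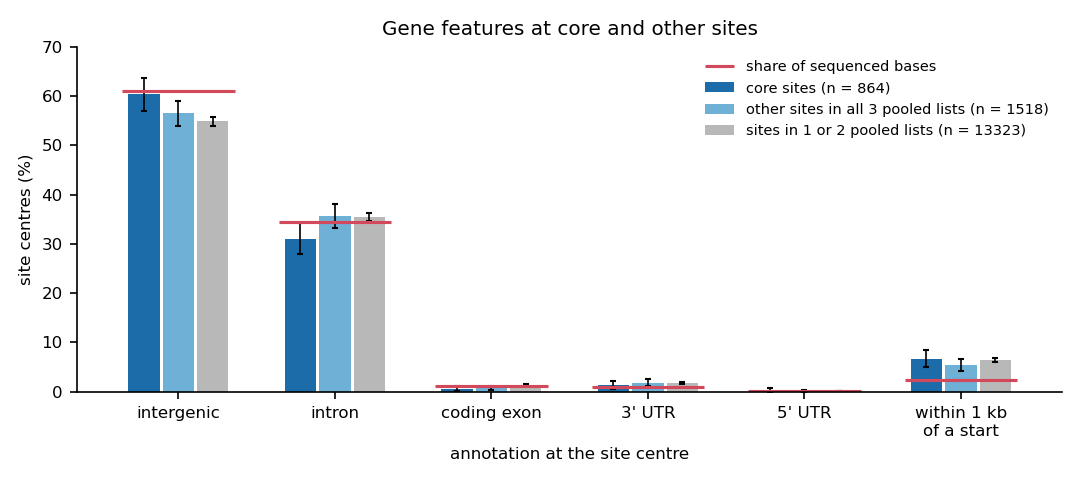
Percent of site centres (y axis) in each annotation class for core sites, other sites of all 3 pooled lists and sites of 1 or 2 lists, with exact binomial 95% intervals; red lines give the share of sequenced bases in each class. Core sites within 1 kb of a start (6.60%) lie above the base share, and the 3 kinds of site are close to each other.

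The X chromosome held a single core site of 864 (0.116%), while it has 6.34% of the sequenced bases and 2.32% of all sites. That site (chrX:155643914-155644180), near Rps6ka3, a ribosomal S6 kinase gene, belonged to the repeated class, so no core site with a motif lay on X. Among the other 1518 shared sites 14 lay on X, and 9 of them had a match. Replicate lists had 0.609 to 1.47% of their peaks on X, except 48 h replicate 2 with 4.95%. The densest chromosomes were 19 and 11, with 0.636 and 0.632 core sites per Mb. They were also the densest autosomes for all sites, with 8.74 and 9.88 per Mb.

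Spacing depends on how many sites a set holds, so the other shared sites are given beside the core sites. The median distance between neighbouring core centres was 1.31 Mb (95% interval 1.14 to 1.49 Mb, from order statistics) over 844 gaps, and 50 gaps (5.92%) were under 50 kb. Among the 1518 other shared sites the median was 687618.5 bp (602177 to 752587 bp), and 7.14% of gaps were under 50 kb. Cut at gaps of 50 kb, there were 770 single sites, 38 pairs and 6 groups of 3. Among all 15705 sites, the nearest neighbour of a core site lay at a median of 24.5 kb. The closest core pair, 1032 bp apart on chromosome 19, lay in introns 1 and 2 of Scd2, a stearoyl-CoA desaturase gene. A group of 3 followed near genes of the same family, 30622 bp from the start of Scd4 and 34534 and 11411 bp from that of Scd1. The Scd1 start lay between the last 2 sites of the group. The next pair was 1500 bp apart on chromosome 17, 14239 and 12739 bp from Psmb9, an immunoproteasome subunit gene in the major histocompatibility complex. The third pair, 1528 bp apart near B4galt5, differed within itself in the pooled lists: the left site (chr2:167104683-167104954) had a pooled percentile of 0.193 at 0 h and 95.1 at 96 h, while the right site (chr2:167106184-167106510) had 94.1 and 96.0. Replicates varied widely. The left site had 10.6 in 0 h replicate 3 alone, and 50.5, 94.4 and 91.3 at 96 h. The right site had 97.6, 2.19 and 38.0 at 0 h, and 98.6, 29.7 and 96.2 at 96 h. Both pairs, at Psmb9 and B4galt5, had motifs pointing away from each other. The other groups of 3 lay at Amz2, Fgd2, Rpia, Bhlhe40 and Arl8b, and Trappc5 and Clec4g.

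Convergent and divergent motifs were about equally frequent among neighbouring core sites. Of 577 neighbouring pairs with a single match each, 151 (26.2%, 22.6 to 30.0%) were convergent, 152 (26.3%) divergent and 274 (47.5%) on the same strand. In the 67 pairs under 100 kb apart, 19 (28.4%, 18.01 to 40.7%) were convergent, 28 (41.8%, 29.8 to 54.5%) divergent and 20 (29.9%, 19.3 to 42.3%) on the same strand. Beyond 100 kb the same-strand share was 49.8% (45.4 to 54.2%). In 130 pairs of other shared sites under 100 kb apart, 17.7% were convergent, 29.2% (21.6 to 37.8%) divergent and 53.1% (44.1 to 61.9%) on the same strand. Sites of 1 or 2 lists had 18.5% convergent and 31.2% divergent at such gaps, so under 100 kb divergent pairs outnumbered convergent ones in each kind of site. At 100 kb or more they did not. There, convergent and divergent shares were 25.9 and 24.3% for core sites, 26.8 and 25.1% for other shared sites, and 32.5 and 22.7% for sites of 1 or 2 lists. Pairs were neighbours within a kind of site, so sites of another kind could lie between them. Over all gaps, convergent core pairs had a median gap of 504 kb, divergent ones 1081 kb and same-strand ones 1508 kb. For other shared sites these medians were closer, at 527, 582 and 665 kb. For sites of 1 or 2 lists the convergent gap was the longest, at 110 kb against 59.5 and 66.8 kb. The differences in gap were not tested. Of 118 matches within 3 kb of a start, 60 (50.8%, 41.5 to 60.2%) were on the strand of the gene.

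**Figure D5:**
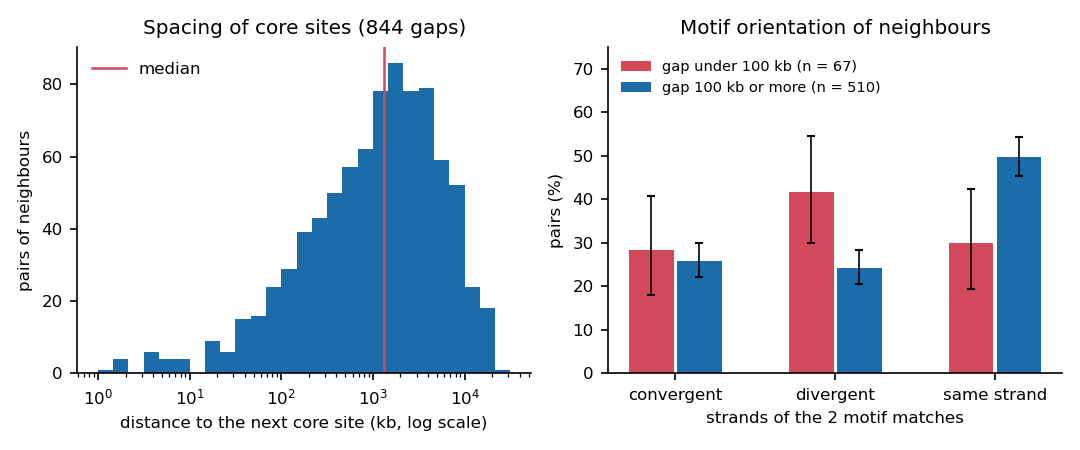
Left, the distance between neighbouring core sites in kb (log scale) as a count of pairs, with the median of 1.31 Mb marked. Right, percent of neighbouring pairs by the strands of their motif matches, for gaps under and over 100 kb, with exact binomial 95% intervals; the divergent share is 41.8% under 100 kb and 24.3% beyond.

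Genes of B cell identity were among those beside core sites. Of all 22367 protein-coding genes 702 (3.14%) had a core site within 10 kb. Of the lists, 4 of 19 annotated B cell transcription factors (21.1%) had one (Ebf1, Foxo1, Pou2f2 and Bcl6), as did 4 of 19 receptor and surface genes (Cd22, Cd72, Cd79b and Fcer2a), 1 of 16 cohesin and CTCF genes (Ctcf), 1 of 20 cell cycle genes (Ccnd2) and 0 of 18 class switch and repair genes. Longer genes have more room for a site, which these counts do not allow for. A site of all 3 pooled lists, core or other, lay within 10 kb of 7 of the 19 transcription factors. The same held for 7 of the 19 receptor and surface genes, against 1882 of all 22367 genes. It also held for 1 of the 18 class switch genes, 1 of the 16 cohesin and CTCF genes and 2 of the 20 cell cycle genes. With any of the 15705 sites, 13 of the 19 transcription factors and 14 of the 19 receptor and surface genes had one within 10 kb. So did 8 of the 18 class switch genes, 7 of the 16 cohesin and CTCF genes and 9 of the 20 cell cycle genes, against 8883 of all 22367 genes. Both B cell lists were thus also high for sites of any kind.

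Ebf1, which specifies the B lineage, was flanked by a convergent pair of core sites, 397199 bp apart. The left site lay 6247 bp outside the gene and the right one 178 bp outside its other end. Their motif matches point towards each other.
Ebf1 left site (chr11:44424538-44424567, plus strand): aggggATCGCGAGGTGGCGCTGTGActcca
Ebf1 right site (chr11:44821794-44821823, minus strand): ctcatGCCAGCAGAGGGCAGCAGTAcgctg
The left site had percentiles of 54.1, 81.3 and 96.8 at 0 h, 40.3 in 48 h replicate 3, and 73.0, 99.9 and 86.7 at 96 h. The right site had 65.7 and 88.3 in 0 h replicates 2 and 3, 82.5 and 40.3 in 48 h replicates 1 and 3, and 93.9, 94.7 and 97.1 at 96 h. Both sites were called in all 96 h replicates and in fewer of those at 48 h.

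Foxo1, a forkhead factor restrained by B cell receptor signalling, had a site 5719 bp from it (chr3:52066379-52066701) that was called in 9 of 9 replicates, with percentiles of 97.3, 9.62 and 99.5 at 0 h, 82.5, 47.6 and 44.8 at 48 h, and 87.4, 96.0 and 96.9 at 96 h. Pou2f2, which encodes the octamer factor OCT2, had one in intron 5 (chr7:25890835-25891270, 8 of 9), with 97.2, 96.1 and 72.5 at 0 h, 61.996 and 70.985 in 48 h replicates 1 and 3, and 93.3, 93.0 and 99.6 at 96 h. The site 2493 bp from Bcl6, the germinal centre repressor (chr16:23991287-23991575, 7 of 9), was weaker, with 12.6 and 75.7 in 0 h replicates 2 and 3, 0.683 and 56.8 in 48 h replicates 1 and 3, and 50.5, 49.3 and 81.3 at 96 h. Among cell cycle genes, Ccnd2, the cyclin D2 of dividing B cells, had one in intron 2 (chr6:127097729-127098079, 7 of 9), with 76.5 and 75.7 in 0 h replicates 1 and 3, 75.6 and 17.1 in 48 h replicates 1 and 3, and 50.5, 80.5 and 96.5 at 96 h. At Pou2f2 the called 48 h replicates were below all others, and at Foxo1 the 48 h replicates were below those at 96 h while 0 h spanned both. At Bcl6 and Ccnd2 the replicates at 96 h overlapped those at both other times.

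For the surface genes the nearest start was that of another gene. The site within 10 kb of Cd22, an inhibitory lectin, was 2026 bp from Ffar1, that of Cd72 was 290 bp from Tesk1, that of Cd79b, a signalling chain of the B cell receptor, was 1007 bp from Gh, and both sites near Fcer2a, the low-affinity IgE receptor CD23 that IL-4 induces, were 65 and 4265 bp from Trappc5. The site 2969 bp from Ctcf was 383 bp from Rltpr. These sites were called in 6 or 7 of the 9 replicates.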

How the data were processed

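RAD21 ChIP-seq of 9 replicates (3 per time point) was used; the 9 input libraries were not used on their own. The authors aligned reads to mm9 with Bowtie 2, drew 7000000 unique positions per set and ran MACS 2 (FDR 0.05, inputs as control) for each replicate and for merged replicates. The deposited lists give a score per peak whose statistic is not named in the sources used here, so scores were ranked within a list. Read depth per peak is unknown. Sites were merged at 1 bp with NumPy 2.4.6 and pandas 2.3.3, the motif was learned on odd-numbered chromosomes, and shares have exact binomial 95% intervals (SciPy 1.17.1). Features came from GENCODE M1 on the same build. Replicates were compared by exact permutation tests, checked on simulated data. Named sites are the 6 strongest by mean percentile, the largest changes of rank, the widest, closest and grouped sites, the 4 strongest within 1 kb of a start and those within 10 kb of listed genes. The listed genes Spi1 and Syk were not analysed here. Members, lists and named sites were chosen with earlier results of these data known, and the sequence classes after values were seen.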

Additional observations from a re-analysis of the deposited data

How the results depend on the processing

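The number of core sites was 500 with at least 7 replicates, 38 with all 9 and 531 with pooled peaks at or above the median score, and 502 to 831 when a replicate was left out. With all 9 replicates the share within 3 kb of a start was 26.3%, the motif share 70.0% (14 of 20 sites), the median spacing 30.8 Mb and the convergent share 22.2% of 9 pairs; few sites remain there. Within 1 kb of a start lay 6.60%. The motif share was 68.6% at the level passed by 1% of flanks and 80.5% within 50 bp of the centre. An alternative added after seeing the data left out the sites with repeated sequence and no match, and gave 95.3%. It removed only sites without a match, so the share could only rise and the value tests nothing. Leaving out replicates gave F of 1.03 to 3.21 for width, a difference in rho of 0.11 to 0.20, F of 2.38 to 8.42 for rank near starts and F of 2.35 to 7.13 for distance to the motif. Over sites called in all 9 replicates the difference in rho was 0.11, and over those called in the 8 replicates other than 48 h replicate 2 the distance F was 2.72. Those causes were not tested. Replicate numbers are shared by the time points. Deviations of same-numbered replicates correlated at -0.10 to 0.07 and those of different-numbered ones at -0.09 to 0.13. These values cannot tell whether same-numbered samples shared mice or a batch, so the tests were also run with the replicate number as a block. With the block, the distance test (F = 3.41) had an exact permutation p of 0.0556. The block changed no other call by exact permutation (score order 0.14, p = 0.0278, and width F = 1.80 and starts F = 4.07, each p = 0.111). In all, 79 alternatives run on these results kept the call, or stayed within the interval or within 1.5 times the count. A further 14 moved outside the interval or count range, 8 lost the call of a test and 1 gained a call.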

Other observations

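The 3 widest core sites, 734, 725 and 711 bp, lay 19159 bp from Ppp1r8, 48767 bp from Scel and 4262 bp from Crb2. The Scel site (chr14:103863429-103864153) was of repeated sequence with no motif match, had no peak in 0 h replicate 1, and had percentiles of 24.4 and 16.4 in the other 0 h replicates, 92.7, 99.7 and 71.0 at 48 h, and 73.0, 69.3 and 63.1 at 96 h. The Ppp1r8 site had no match either. The Crb2 site had a match of 20.0 log2 odds and no peak in 48 h replicates 2 and 3.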
